A study of Mus musculus with 2 samples.

Results

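The small leucine-rich proteoglycans are secreted proteins of the extracellular matrix, and 8 of their genes were followed here through the non-parenchymal cells of normal and fibrotic mouse liver. Decorin (Dcn), biglycan (Bgn), lumican (Lum), fibromodulin (Fmod), asporin (Aspn), osteoglycin (Ogn), osteomodulin (Omd) and PRELP (Prelp) were taken by name, as the rows of these 8 genes in both count tables, out of 21722 genes listed in either library and 19219 listed in both. All 8 were listed in both libraries. They were described in 4 classes of cells: hepatic stellate cells and myofibroblasts (HSC/MF-like), portal fibroblasts (PF-like), mesothelium and endothelium. Dcn led in every mesenchymal class of both libraries. Bgn in both libraries, and Prelp in the normal one, were also counted in the endothelium above the level of lymphocytes, and in normal liver most so around the central vein. Fmod and Omd were highest in normal mesothelium, Aspn in normal PF-like cells and Ogn in both of these. The levels of Fmod, Ogn, Omd and Prelp in mesothelium and of Aspn and Ogn in PF-like cells were at least 2 times lower in the fibrotic library. For Omd this rests on 14 UMIs in the normal library.

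These proteins share a core of leucine-rich repeats that binds fibrillar collagen and sets how fibrils assemble and how wide they grow. Decorin and biglycan carry chondroitin or dermatan sulfate chains and bind TGF-β, and soluble biglycan is a ligand of Toll-like receptors. Lumican, fibromodulin, osteomodulin and PRELP belong to the keratan sulfate branch of the family, asporin is close to decorin but as a rule carries no such chain, and osteoglycin belongs to a further branch. In liver, the stellate cell of the sinusoid wall and the fibroblast of the portal tract are the usual sources of such matrix.

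Both libraries came from liver of male C57BL/6 mice aged 8 weeks. The library labelled Q (quiescent) is from 1 mouse injected intraperitoneally with olive oil, and the library labelled F (fibrosis) from 1 mouse injected with CCl4, a hepatotoxin that causes fibrosis around the central vein, 2 times a week for 6 weeks in both. Hepatocytes were spun out of the collagenase-digested tissue, and the remaining cells went through droplet scRNA-seq, which reads the 3′ end of each transcript. Each condition is thus 1 mouse and 1 library, so a difference between Q and F is a difference between 2 mice, no test between conditions was possible and no p-value is given.

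A UMI (unique molecular identifier) counts 1 captured transcript, so levels of genes are compared without dividing by length. A level here is the number of UMIs of a gene per 10000 UMIs of all genes, summed over the cells of a class, with an exact 95% Poisson interval in parentheses. A ratio of F over Q carries an exact conditional 95% interval, and a share of cells an exact 95% binomial (Clopper-Pearson) interval. All of these cover counting error only. A gene was compared in a class if its level reached 0.1 in either library, and was called higher or lower where the ratio was at least 2 or at most 0.5.

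The tables hold 8130 cells and 44062632 UMIs in Q and 6437 cells and 53288463 UMIs in F, with medians of 4144 and 5619 UMIs per cell, and 7471 and 6132 cells passed the filter. Of the barcodes, 15 occur in both libraries and 13 among the cells kept. Cells named mesenchymal numbered 207 in Q and 567 in F. When these were clustered again, 63 cells of Q and 295 of F fell into mixed sub-clusters that also carried leading genes of endothelium, macrophages, dendritic cells or the cell cycle, with median Scrublet doublet scores of 0.119 and 0.107 beside 0.0353 and 0.0637 in HSC/MF-like cells. They were left out of the named classes, and whether they are doublets was not tested. This left 58 and 113 HSC/MF-like, 43 and 111 PF-like and 43 and 48 mesothelial-like cells, beside 2249 and 1731 endothelial-like cells. Lymphoid cells (1585 and 1338 cells named from B, NK and T cell markers) should lack these genes and show what free RNA in the droplets adds.

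The classes carried the markers of their names unevenly. HSC/MF-like cells of Q had 4 stellate markers among their 10 leading genes, behind the immune genes Ighm, Ccl5 and Ccl4. Lrat, the retinol esterifying enzyme of stellate cells, stood at 16.3 in HSC/MF-like cells of Q and 17.2 in those of F, while the whole stellate list summed to 330.8 and 192.3 and Reln, a stellate cell gene, stood at 25.6 and 19.6. Msln, of mesothelium, stood at 18.5 and 6.21 in mesothelial-like cells. Entpd2, an ectonucleotidase of portal fibroblasts, stood at 2.51 in PF-like cells of Q but at 0.317 in those of F. In F the summed level of the PF list was 61.2 and that of the HSC list 56.7 in these PF-like cells, beside 163 and 30.6 in Q, and Reln stood at 0 in Q and 2.32 in F. The PF-like name therefore rests on fewer genes in F. There it covers a sub-cluster of 81 cells led by Mfap4, Fgl2 and Ltbp2 and one of 30 cells led by Fndc1 and Cxcl5 with 1 PF marker among its 10 leading genes. Whether the PF-like cells of Q and of F are the same kind of cell was not tested.

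Of the 8 genes, 3 lie in a row on chromosome 13, in the order Aspn (49544443 to 49567565 of GRCm38), Omd (49582462 to 49592822) and Ogn (49608046 to 49624501). The gaps between them are 14.9 kb and 15.2 kb, and Cenpp runs across all 3 on the other strand, while Gm15851 overlaps Prelp on the other strand. Dcn (97479609 to 97518143) and Lum (97565128 to 97572703) are neighbours on chromosome 10, 47.0 kb apart, Prelp (133910304 to 133921414) and Fmod (134037254 to 134048277) are neighbours on chromosome 1, 115.8 kb apart, and Bgn (73483602 to 73495933) lies on the X chromosome. The promoters of Aspn and Ogn are shown because these neighbours were both far lower in F among PF-like cells, and that of Bgn because it was the member with the most UMIs in endothelium. They are RefSeq sequences of build GRCm38.p6 from 250 bases before to 50 bases after the gene's start, printed 5′ to 3′ on the strand of the gene. Capitals mark TATAAA or GGGCGG on either strand.
Aspn (chr13:49544193-49544492, plus strand): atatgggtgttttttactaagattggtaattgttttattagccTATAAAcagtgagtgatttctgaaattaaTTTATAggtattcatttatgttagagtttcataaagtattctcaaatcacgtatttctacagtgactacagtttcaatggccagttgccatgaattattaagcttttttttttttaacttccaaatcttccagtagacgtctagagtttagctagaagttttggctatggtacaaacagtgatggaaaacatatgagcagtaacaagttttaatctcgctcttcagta
Ogn (chr13:49607765-49608064, plus strand): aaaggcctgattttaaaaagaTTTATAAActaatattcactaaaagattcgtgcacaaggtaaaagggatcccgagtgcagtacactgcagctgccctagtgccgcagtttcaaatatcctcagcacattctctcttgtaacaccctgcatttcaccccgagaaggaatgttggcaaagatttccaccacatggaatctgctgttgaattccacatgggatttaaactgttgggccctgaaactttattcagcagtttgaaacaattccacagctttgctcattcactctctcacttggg
Bgn (chrX:73483351-73483650, plus strand): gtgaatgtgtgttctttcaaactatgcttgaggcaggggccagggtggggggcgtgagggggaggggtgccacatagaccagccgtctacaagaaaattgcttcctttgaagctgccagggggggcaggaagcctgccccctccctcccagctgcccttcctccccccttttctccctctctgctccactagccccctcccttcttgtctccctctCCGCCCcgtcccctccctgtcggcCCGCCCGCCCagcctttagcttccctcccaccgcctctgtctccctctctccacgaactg
The letters TATAAA, known as the TATA box, occur in the promoters of Aspn and Ogn and in 13.6% of 32544 RefSeq promoters of the same length. In Ogn its copies on both strands overlap. GGGCGG, known as the GC box, occurs in that of Bgn and in 35.9% of all. The G and C content is 31.0% for Aspn, 42.3% for Ogn and 63.7% for Bgn, beside a median of 53.0%. Of the other members with a promoter in the table, Fmod, Omd and Prelp held neither motif. TGANTCA, the AP-1 site, was in none of the 6 members' promoters and in 7.8% of all. Dcn and Lum had no entry.

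**Figure D1:**
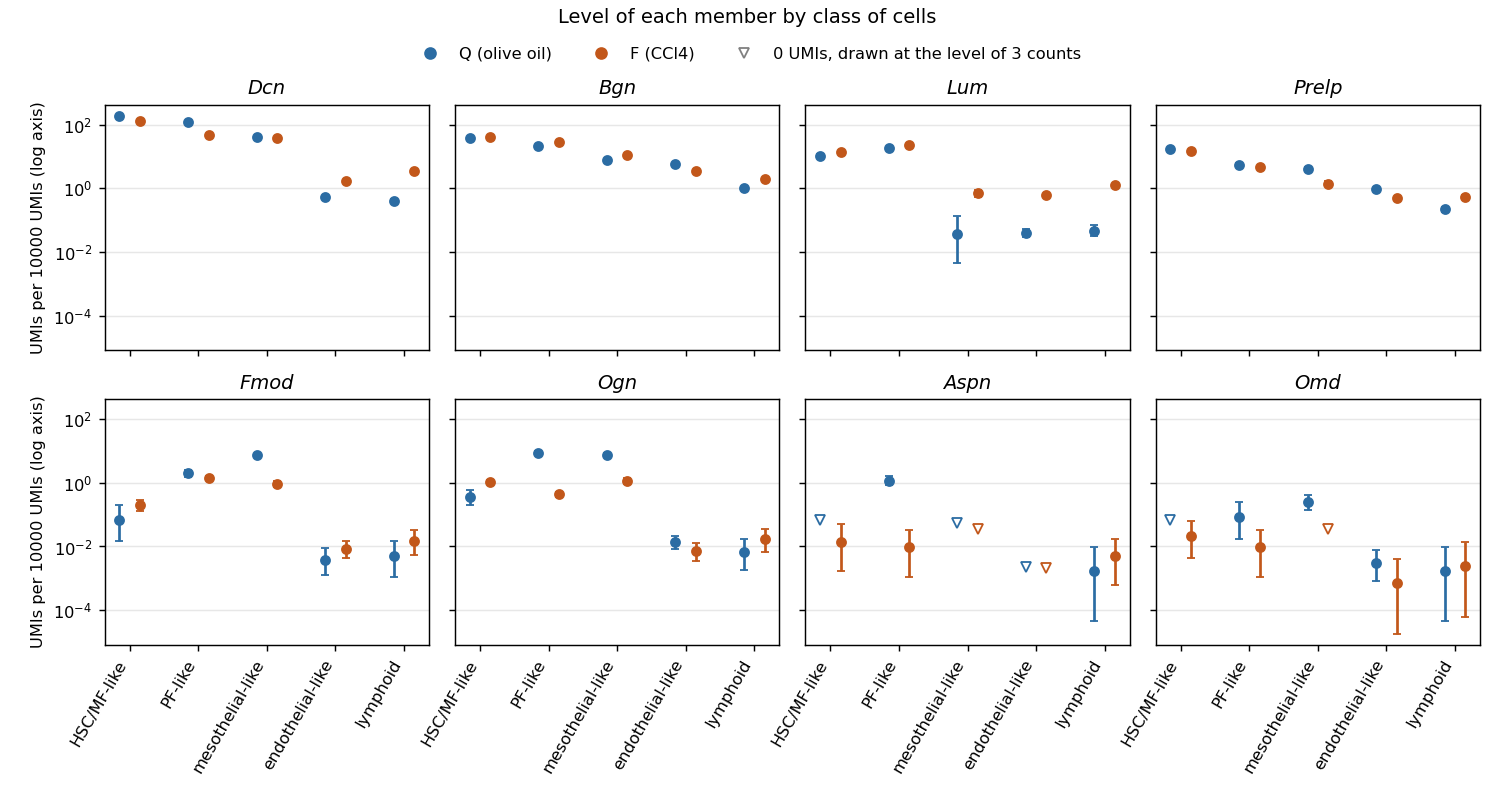
Level of each of the 8 genes (vertical axis, UMIs per 10000 UMIs, log axis) in 5 classes of cells (horizontal axis), for Q (blue) and F (orange), with 95% Poisson intervals; open triangles stand for 0 UMIs and are drawn at the level of 3 counts. Dcn, Bgn, Lum and Prelp are highest in HSC/MF-like and PF-like cells of both libraries, while Fmod, Ogn and Omd are highest in mesothelial-like or PF-like cells of Q, and Aspn only passes a level of 1 in PF-like cells of Q.

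In HSC/MF-like cells, the stellate class, 4 of the 8 genes made up nearly all of the counts and differed by less than 2 times in level between the libraries. Dcn stood at 184.7 (180.6 to 188.8) in Q and 128.2 (126.3 to 130.1) in F, with at least 1 UMI in all 58 and all 113 cells. The ratio of F over Q was 0.694 (0.676 to 0.713). Bgn stood at 37.3 (35.5 to 39.2) in Q and 40.6 (39.6 to 41.7) in F, with a ratio of 1.09 (1.03 to 1.15). Prelp, which anchors basement membrane to the matrix beneath, stood at 17.6 (16.4 to 19.0) in Q and 14.5 (13.8 to 15.1) in F, with a ratio of 0.820 (0.754 to 0.893). Lum stood at 10.6 (9.63 to 11.6) in Q and 14.3 (13.7 to 14.9) in F, with a ratio of 1.35 (1.22 to 1.496). Per cell, Dcn and Prelp were not lower in F: the cells were deeper there (median 11555 against 6438 UMIs), and Dcn came to 135.4 UMIs per cell in Q and 161.5 in F, Prelp to 12.9 and 18.2. Per cell Lum was past 2 times, with 7.76 UMIs in Q and 17.96 in F, a ratio of 2.32, and Bgn came to 27.4 and 51.1. Fewer transcripts of a gene per cell and more transcripts of others cannot be told apart on the level scale.

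The remaining 4 genes were rare in stellate cells. Ogn had 15 UMIs in Q, a level of 0.353 (0.197 to 0.582), and 154 in F, a level of 1.08 (0.918 to 1.27). Its ratio of 3.07 (1.80 to 5.61) passed 2 times, and 141 of the 154 UMIs lay in the deeper of the 2 F sub-clusters, 54 cells led by Ankrd1, of which 32 had a UMI of it. With each cell thinned to 1000 UMIs the ratio was 0.898 and its interval of 0.228 to 4.18 held both directions. Fmod had 3 UMIs in Q, all in 1 cell, and 28 in F, of which 1 cell held 42.9%, so that its ratio of 2.79 (0.861 to 14.3) also left both directions possible. Without the 3 cells of each library that held the most Fmod UMIs it was no longer called. Aspn had 0 UMIs in Q and 2 in F, and Omd 0 and 3, both under the level at which a gene was compared. Of the 6 genes compared, 2 (Ogn and Fmod) were at least 2 times higher in F, beside 10.7% of the 9908 genes compared in this class, and 0 were at least 2 times lower, beside 11.2%. The median ratio was 1.22 over the 6 members and 0.9999 over all genes. Markers of hepatocytes summed to a level of 208.5 in these cells of Q and 15.5 in those of F, those of Kupffer cells to 6.51 and 13.9 and those of monocytes and macrophages to 11.4 and 26.7, and their part in the ratios was not tested.

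Within F the 2 stellate sub-clusters differed. The 59 cells led by S100a8 and S100a9, with a median of 6392 UMIs, had Dcn at 140.5, Bgn at 30.6, Prelp at 17.2 and Lum at 8.28. The 54 cells led by Ankrd1, with a median of 16996.5 UMIs, had Dcn at 122.5, Bgn at 45.3, Prelp at 13.2 and Lum at 17.1. By level, Dcn and Prelp were thus higher in the shallower and Bgn and Lum in the deeper of them. Per cell all of these genes were higher in the deeper one. Dcn came to 107.8 UMIs in the shallower and 220.2 in the deeper, Prelp to 13.2 and 23.7, Bgn to 23.5 and 81.4 and Lum to 6.36 and 30.7.

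Dcn, Bgn and Prelp lay in most stellate cells and not in a few of them. The quartiles of Dcn over cells, per 10000 of each cell's own UMIs, were 130.1 and 206.3 in Q and 89.3 and 155.9 in F. For Bgn the quartiles were 22.3 and 45.5 in Q and 25.4 and 45.4 in F, around medians of 33.5 and 33.4. After thinning to 1000 UMIs, a Bgn UMI was found in 96.6% (88.1 to 99.6) of cells in Q and 93.8% (87.7 to 97.5) in F, and a Lum UMI in 48.3% (34.95 to 61.8) and 60.2% (50.5 to 69.3). For Prelp the thinned share was 81.0% (68.6 to 90.1) in Q and 63.7% (54.1 to 72.5) in F, intervals that overlap.

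In PF-like cells Dcn, Aspn and Ogn were lower in F, and the make-up of the family differed between the libraries. Dcn stood at 123.7 (120.0 to 127.4) in Q and 48.5 (47.6 to 49.4) in F, a ratio of 0.392 (0.379 to 0.406), although its count per cell was 100.7 in Q and 93.7 in F. Lum, which sets fibril width together with fibromodulin, stood at 19.1 (17.7 to 20.6) and 23.5 (22.9 to 24.2), and Bgn at 21.5 and 29.0 (28.3 to 29.8). Their ratios were 1.23 (1.13 to 1.34) for Lum and 1.35 (1.25 to 1.46) for Bgn. Per cell both were past 2 times, Lum with 15.6 UMIs in Q and 45.4 in F (2.92 times) and Bgn with 17.5 and 56.1 (3.21 times). With Dcn lower and these higher, Dcn made up 68.0% of the UMIs of the 8 genes in Q and 45.1% in F, Lum 10.5% and 21.9%, and Bgn 11.8% and 27.0%. Prelp stood at 5.54 (4.79 to 6.38) and 4.61 (4.33 to 4.91) and Fmod at 2.03 (1.58 to 2.56) and 1.44 (1.28 to 1.61), neither past 2 times.

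Aspn and Ogn, neighbours on chromosome 13 with Omd between them, were far lower in F in this class. Aspn, which binds collagen at the site that decorin uses, had 41 UMIs in 14 of 43 cells of Q, a level of 1.17 (0.841 to 1.59), and 2 UMIs in 111 cells of F, a level of 0.00932. Its ratio was 0.00796 (0.000933 to 0.0306), and normal PF-like cells held 93.2% of the 44 Aspn UMIs of their library. Ogn stood at 8.69 (7.74 to 9.72) in Q, with a UMI in 37 of 43 cells, and at 0.434 (0.350 to 0.531) in F, with a UMI in 41 of 111. Its ratio of 0.0499 (0.0391 to 0.0632) was past 2 times under all 11 alternatives that gave a value, as was that of Aspn. Omd had 3 UMIs in Q and 2 in F and was not compared. After thinning, an Ogn UMI was found in 53.5% (37.7 to 68.8) of PF-like cells in Q and 3.60% (0.990 to 8.97) in F, intervals that do not overlap.

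Of the 7 genes compared in PF-like cells, 0 were at least 2 times higher in F, beside 17.2% of the 10644 genes compared, and 3 (Dcn, Aspn and Ogn) were at least 2 times lower, beside 11.0%. The median ratio was 0.708 over the 7 members and 1.11 over all genes. Hepatocyte markers summed to 153.4 in these cells of Q and 15.7 in those of F, Kupffer cell markers to 3.34 and 14.4, monocyte and macrophage markers to 22.8 and 49.3 and cell cycle markers to 1.09 and 8.42, and their part in the ratios was not tested. The 2 sub-clusters of F were not alike here either. In the 81 cells led by Mfap4, Lum stood at 37.1, Bgn at 39.1, Fmod at 2.32 and Prelp at 6.998, and in the 30 cells led by Fndc1 at 2.62, 13.7, 0.0826 and 0.956. By level, Dcn, at 52.2 and 42.9, and Ogn, at 0.593 and 0.189, were low in both beside Q. Per cell this held in both for Ogn, with 0.951 and 0.533 UMIs beside 7.07 in Q. For Dcn the 81 cells had 83.5 UMIs per cell and the 30 cells 121.3, beside 100.7 in Q. When HSC/MF-like and PF-like cells of each library were pooled, an alternative chosen after the data were seen, the Ogn ratio was 0.168 (0.142 to 0.199).

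In mesothelial-like cells, the sheet that covers the liver, Dcn was level and Fmod, Ogn, Omd and Prelp were lower in F. Dcn stood at 41.0 (39.3 to 42.7) in Q and 39.6 (38.3 to 40.9) in F, a ratio of 0.967 (0.917 to 1.02). Bgn stood at 7.61 (6.90 to 8.37) and 11.4 (10.7 to 12.1), a ratio of 1.499 (1.34 to 1.68), and per cell it was past 2 times, with 9.81 UMIs in Q and 20.8 in F (2.12 times). Fmod and Ogn were counted in nearly every normal mesothelial-like cell. Fmod stood at 7.41 (6.71 to 8.16) in Q, with a UMI in 42 of 43 cells, and at 0.926 (0.735 to 1.15) in F, with a UMI in 27 of 48, a ratio of 0.125 (0.0972 to 0.159). Ogn stood at 7.72 (7.004 to 8.49) in Q, with a UMI in all 43 cells, and at 1.13 (0.920 to 1.38) in F, a ratio of 0.147 (0.117 to 0.183). Prelp stood at 4.06 (3.55 to 4.62) and 1.40 (1.16 to 1.67), a ratio of 0.344 (0.274 to 0.430).

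Omd, best known from bone, had 14 UMIs in 12 of the 43 normal mesothelial-like cells and 0 in the 48 cells of F, at least 7.36-fold lower when 3 counts over the class stand for 0. The normal cells held 50.0% of its 28 UMIs in the library. Aspn had 0 UMIs in both. Lum had 2 UMIs in Q and 62 in F, a ratio of 19.7 (5.22 to 166). The direction turned to 0.312 with classes named on the clusters of the whole library and to 0.130 with a mitochondrial share under 5%. Its level of 0.709 (0.544 to 0.909) in F was below the 1.27 (1.16 to 1.39) of lymphoid cells, 1 cell held 53.2% of the UMIs, and 0 of 46 thinned cells had one, which allows a share of up to 7.71% by the exact interval. Per cell Lum came to 1.29 UMIs in these cells and 0.386 in lymphoid cells of F, so whether it exceeds free RNA depends on the scale. Of the 7 genes compared, 1 (Lum) was at least 2 times higher in F, beside 16.0% of 10512 genes, and 4 (Fmod, Ogn, Omd and Prelp) were at least 2 times lower, beside 10.1%. The median ratio was 0.344 over the members and 1.09 over all genes. The mesothelial marker list summed to a level of 247.6 in Q and 136.6 in F, and hepatocyte markers to 119.6 and 18.9, both lower in F. Kupffer cell markers summed to 2.63 and 22.4, monocyte and macrophage markers to 8.73 and 20.9 and cell cycle markers to 1.30 and 9.89, all higher in F, and the part of these lists in the ratios was not tested.

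**Figure D2:**
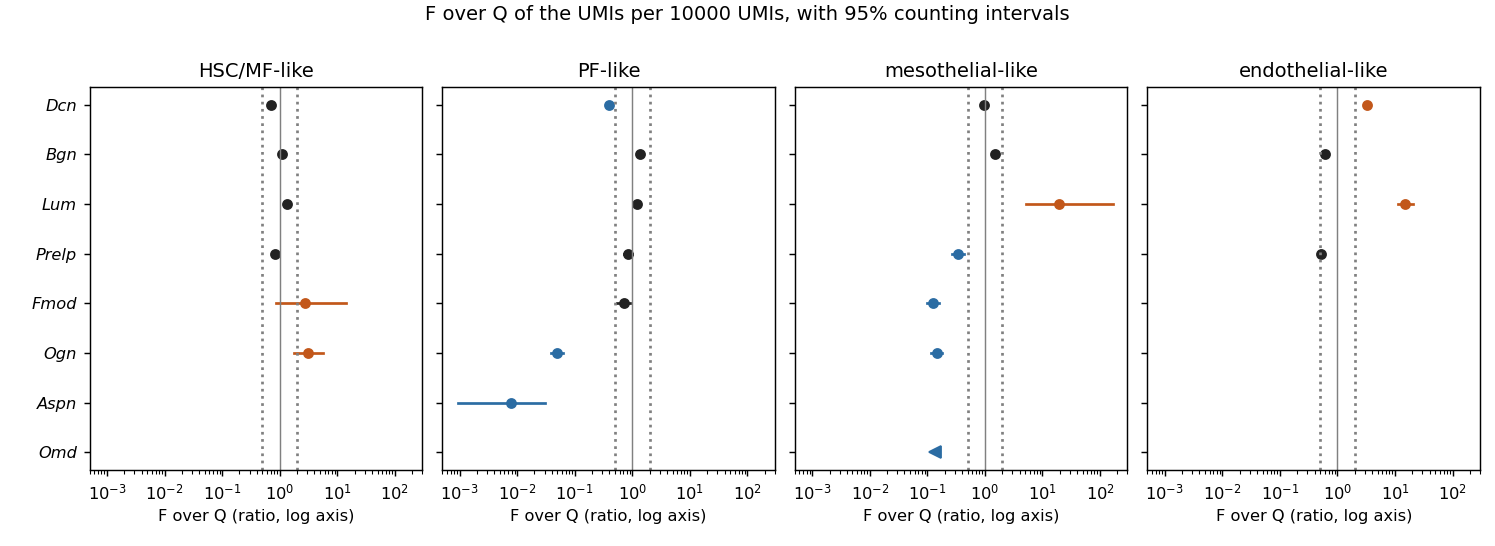
Ratio of F over Q (horizontal axis, log axis) of the level of each gene (rows) in 4 classes, with 95% counting intervals; dotted lines stand at 0.5 and 2, blue and orange mark ratios past them, a left-pointing triangle is a bound from 3 counts, and genes under a level of 0.1 in both libraries are left out. Ogn lies at 3.07 in HSC/MF-like cells, at 0.0499 in PF-like cells and at 0.147 in mesothelial-like cells, while Bgn stays between 0.613 and 1.499 in all 4 classes.

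Where the UMIs of each gene lay in the library follows from both level and number of cells. Dcn lay in cells named mesenchymal, mixed sub-clusters included, for 93.1% of 24236 UMIs in Q and 91.5% of 91842 in F. Bgn lay in endothelial-like cells for 49.1% of its 15550 UMIs in Q and 12.4% of 40037 in F, and Prelp for 29.2% of 4218 and 6.68% of 10252. Fmod lay in mesothelial-like cells for 81.4% of 505 UMIs in Q, and in PF-like cells for 52.5% of 587 in F. Mixed sub-clusters held 33.5% of Dcn UMIs in Q and 56.5% in F. By level, Dcn in them was lower than in stellate cells of the same library. Its level was 65.7 in the cycling one of Q and lay within 97.3 to 102.7 (its 95% interval) in the pDC-like one. In the 5 of F it lay between 38.8 and 82.3. Mixed cells were deeper, with medians of 15229 UMIs in Q and 26632 in F. Per cell, Dcn came to 114.6 and 137.5 UMIs in the cycling and pDC-like ones of Q, beside 135.4 in stellate cells. In the 5 of F it came to between 102.9 and 269.8 per cell, beside 161.5, so the direction depends on the scale.

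**Figure D3:**
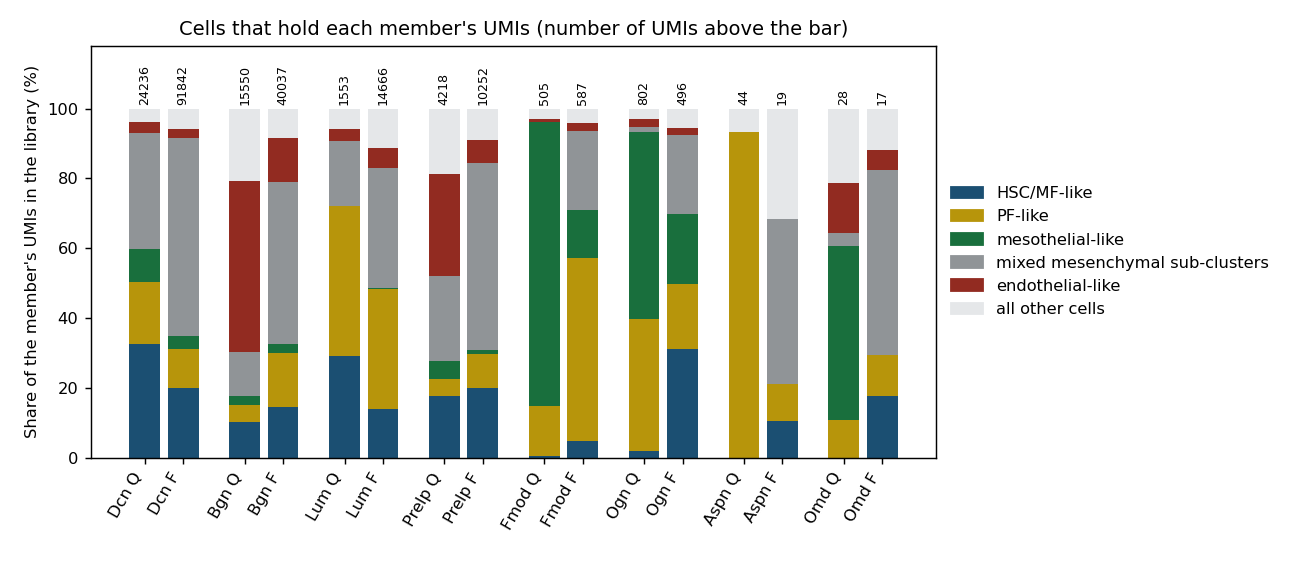
Share of each gene's UMIs in its library (vertical axis, percent) that lay in each class, with 1 bar per gene and library and the number of UMIs above the bar. Bgn and Prelp have the largest endothelial shares in Q (49.1% and 29.2%), and the mesothelial share of Fmod goes from 81.4% in Q to 13.8% in F.

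In the endothelium of F, Dcn and Lum stood below the level of lymphoid cells, while Bgn stood above it in both libraries. In Q, Dcn stood at 0.545 (0.505 to 0.586) in endothelial-like and 0.393 (0.344 to 0.448) in lymphoid cells, but 4 of the 2249 endothelial-like cells held 39.1% of the UMIs and without them the level was 0.332. In F, Dcn stood at 1.76 (1.69 to 1.83) in endothelial-like and 3.48 (3.30 to 3.67) in lymphoid cells. Lum stood at 0.0405 and 0.0468 in Q and at 0.611 and 1.27 in F, endothelial-like before lymphoid. Both genes passed 2 times between the libraries in endothelial-like cells, with ratios of 3.23 (2.97 to 3.52) for Dcn and 15.1 (11.4 to 20.3) for Lum, but the ratios in lymphoid cells were 8.86 and 27.2. Endothelial-like cells were deeper than lymphoid ones (medians of 5567 and 3148 UMIs in Q, 7508 and 2236 in F), and per cell Dcn came to 0.317 and 0.143 UMIs in Q, 2.21 times as high, and to 1.41 and 1.06 in F, 1.34 times as high. Lum came to 0.0236 and 0.0170 per cell in Q and 0.491 and 0.386 in F.

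Bgn stood at 5.83 (5.70 to 5.97) in endothelial-like cells of Q and 1.05 (0.964 to 1.13) in lymphoid cells, 5.58 (5.13 to 6.07) times as high. In F the levels were 3.58 (3.48 to 3.68) and 1.91 (1.77 to 2.04), 1.88 (1.74 to 2.03) times as high, and 4.98 times per cell. Erythroid-like cells, which should lack the gene too and had a median of only 969.0 UMIs in F, stood at 1.36 (1.20 to 1.54) in Q and 3.54 (3.15 to 3.98) in F, so that by level the endothelium of F was not above this second background, while per cell it held 2.88 UMIs of Bgn beside 0.504. After thinning, a Bgn UMI was found in 38.4% (36.4 to 40.5) of endothelial-like and 6.25% (5.11 to 7.56) of lymphoid cells in Q, and in 28.1% (25.9 to 30.3) and 18.1% (16.1 to 20.3) in F. The ratio of F over Q was 0.613 (0.592 to 0.636) in endothelial-like cells while lymphoid cells went the other way, at 1.82 (1.63 to 2.03). Prelp stood at 0.942 (0.890 to 0.996) in endothelial-like and 0.220 (0.183 to 0.262) in lymphoid cells of Q, 4.28 (3.57 to 5.18) times as high, and at 0.493 (0.456 to 0.531) and 0.535 (0.466 to 0.611) in F. For Prelp the whole endothelium of F was thus not above lymphoid cells by level, and held 2.44 times the lymphoid count per cell.

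Of the 4 genes compared in endothelial-like cells, 2 (Dcn and Lum) were at least 2 times higher in F, beside 4.73% of 9620 genes, and 0 were at least 2 times lower, beside 6.14%. Fmod, Ogn and Omd had 18 UMIs or fewer each in this class and Aspn had 0 in both libraries, and none of these was compared. Hepatocyte markers summed to 242.1 in these cells of Q and 19.6 in those of F, Kupffer cell markers to 7.18 and 18.1, monocyte and macrophage markers to 6.86 and 12.03 and cell cycle markers to 1.99 and 5.78, and their part in the ratios was not tested. The summed level of all 8 genes was 4.29 (4.02 to 4.58) times the lymphoid one in Q and 0.893 (0.856 to 0.931) times in F. Per cell the sums were 6.85 and 2.36 times as high, so the direction in F depends on the scale.

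The endothelial counts of Bgn and Prelp were zoned. Sub-clusters of endothelial-like cells were named from vessel and zone markers, some from 1 marker among the 10 leading genes, and 474 cells of Q and 432 of F stayed unnamed. Zone 1 held 402 cells in Q and 649 in F and zone 2/3 held 934 and 326, and like clusters were not always named alike. A cluster of 273 cells of Q led by Esm1, with 1 marker each of zone 1 and zone 2/3 among its leading genes, counted as zone 2/3, whereas 270 and 182 cells of F in clusters that also had Esm1 among their leading genes counted as zone 1, so ratios of the sinusoidal zones may set different cells side by side. Bgn in Q stood at 11.7 (11.2 to 12.2) in central vein EC-like cells (endothelial cells with Rspo3 and Wnt9b), at 9.44 (8.89 to 10.0) in portal vessel EC-like cells, at 5.41 (5.12 to 5.70) in zone 1 and at 4.42 (4.25 to 4.59) in zone 2/3 sinusoidal cells (LSEC-like). In F these levels were 5.01 (4.71 to 5.32), 6.26 (5.67 to 6.89), 3.31 (3.16 to 3.47) and 3.10 (2.90 to 3.32). The vessels were above the sinusoid in both libraries. By level the ratio of F over Q was 0.427 (0.396 to 0.461) around the central vein and 0.613 to 0.702 in the other named zones, and portal vessel cells stood above central vein cells in F. The order of the vessels depends on the scale, since median depth went from 5947 to 8930 UMIs around the central vein and from 7052 to 5570 in portal vessel cells. Per cell, Bgn came to 7.31 UMIs in Q and 4.98 in F around the central vein and to 6.96 and 3.67 in portal vessel cells, with the central vein above in both libraries.

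Among endothelial zones Prelp was highest around the central vein. In Q it stood at 2.52 (2.30 to 2.77) there, 11.48 (9.40 to 14.1) times the lymphoid level, at 0.858 (0.785 to 0.936) in zone 2/3, and at 0.363 (0.292 to 0.446) and 0.301 (0.209 to 0.418) in zone 1 and portal vessel cells, which do not differ beyond counting error. In F it stood at 1.12 (0.976 to 1.27) around the central vein, 2.09 (1.73 to 2.52) times the lymphoid level but not above the 1.39 (1.15 to 1.67) of erythroid-like cells. In the other named zones of F it stood between 0.325 and 0.483. Over the lymphoid level that was 0.607 (0.495 to 0.744) in zone 1, 0.672 (0.42 to 1.03) in portal vessel cells and 0.904 (0.722 to 1.13) in zone 2/3. Only zone 1 was thus below lymphoid cells beyond counting error. Per cell these zones held 1.69, 1.30 and 2.48 times the lymphoid count. At the central vein 182 of 281 cells of Q and 119 of 210 cells of F had a Prelp UMI before thinning. Per cell it came there to 1.58 UMIs in Q and 1.11 in F, the latter beside 0.162 in lymphoid and 0.198 in erythroid-like cells of F. The ratio of F over Q of the level at the central vein was 0.442 (0.375 to 0.519), and the values per cell were less than 2 times apart.

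**Figure D4:**
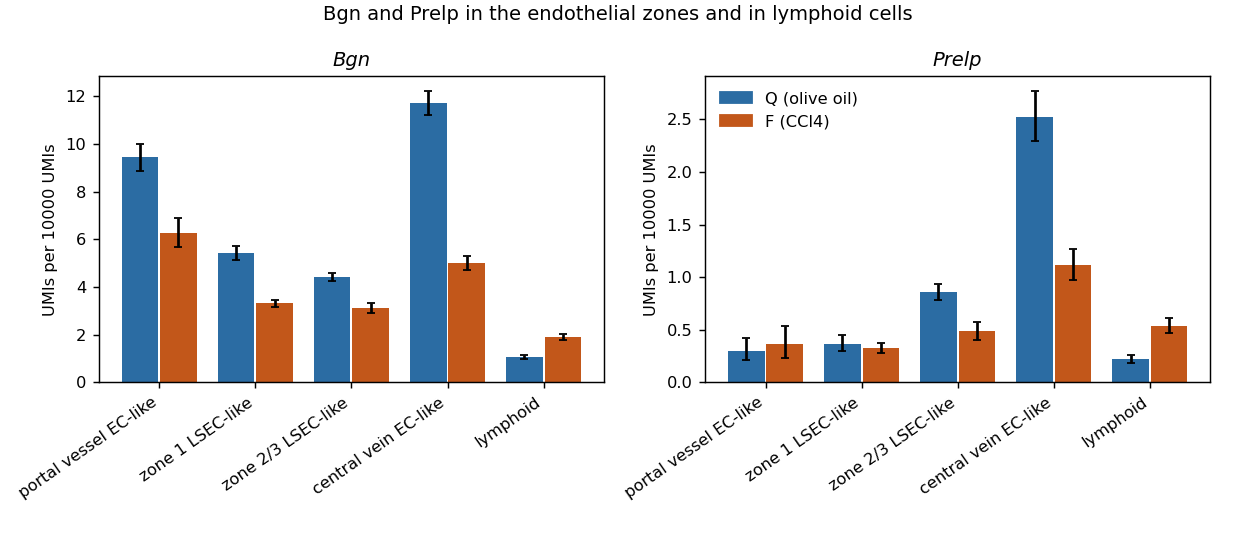
Level of Bgn (left) and Prelp (right) in UMIs per 10000 UMIs in 4 named endothelial zones and in lymphoid cells, for Q (blue) and F (orange), with 95% Poisson intervals. Both genes are highest around the central vein in Q (11.7 and 2.52) and lower there in F (5.01 and 1.12), while the lymphoid bars are higher in F.

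Free RNA of 1 source keeps its genes in 1 ratio in every class, so counts were also set against those of Dcn. Lum per Dcn in the cells outside the mesenchyme of F lay between 0.180 for the pDC-like and 0.387 for the NK and T cell class over 11 classes, with 0.347 (0.320 to 0.375) in endothelial-like and 0.365 (0.330 to 0.404) in lymphoid cells. In Q it lay between 0.0286 and 0.124 over 12 classes, with 0.0743 in endothelial-like cells. Within the mesenchyme it ranged far more widely, from 0.000881 in mesothelial-like to 0.155 in PF-like cells of Q and from 0.0179 to 0.484 in F, with stellate cells at 0.0573 and 0.111. Outside the mesenchyme of F these ratios were not all alike within counting error, since the pDC-like interval of 0.138 to 0.233 and that of monocyte/macrophage-like cells, 0.257 to 0.320, lie below the lymphoid one. Bgn per Dcn ranged more widely, from 0.429 to 2.03 over the same classes of F. It was 0.547 (0.5005 to 0.598) in lymphoid, 2.03 (1.94 to 2.14) in endothelial-like and 3.31 (2.92 to 3.76) in central vein EC-like cells, and in Q 2.66, 10.7 and 39.5.

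Genes that make, cut or bind these proteins were taken from 6 lists. Their counts of genes past 2 times are to be read beside those over all genes, which were 10.7% higher and 11.2% lower in HSC/MF-like cells, 17.2% and 11.0% in PF-like cells, 16.0% and 10.1% in mesothelial-like cells and 4.73% and 6.14% in endothelial-like cells. In stellate cells, 10 of 12 fibrillar and fibril-associated collagens compared were at least 2 times higher in F and 0 lower, with a median ratio of 5.91, while the members' median was 1.22. Col1a1 stood at 2.16 in Q and 85.1 in F, Col1a2 at 7.83 and 99.6, and Col3a1 at 11.9 and 111.4. Col14a1, a fibril-associated collagen that binds decorin, stood at 25.4 and 31.7, a ratio of 1.25 (1.17 to 1.33). In PF-like cells 4 of 12 collagens were higher and 0 lower, with a median of 1.25. In mesothelial-like cells 4 of 11 were higher and 1 was lower, and in endothelial-like cells, 8 of 9 were higher and 0 lower. All 8 were at least 2 times higher in lymphoid cells of F too and by level stood below lymphoid cells there. Col1a1 stood at 1.17 in endothelial-like and 2.26 in lymphoid cells. Endothelial-like cells of F were deeper than lymphoid ones (medians of 7508 and 2236 UMIs). These genes were not compared with lymphoid cells per cell, so the direction on that scale is not given.

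Of 3 other small leucine-rich proteins compared in PF-like cells, 2 were lower in F and 0 higher. Podn (podocan) stood at 2.77 in Q and 0.168 in F, a ratio of 0.0606 (0.0401 to 0.0896), and Ecm2, the neighbour of Aspn on chromosome 13, at 2.60 and 0.191, a ratio of 0.0735 (0.0496 to 0.107). Tsku (tsukushi) had 5 and 28 UMIs, and its ratio of 0.914 (0.348 to 3.03) left both directions possible. In stellate cells Podn stood at 0.3998 and 0.499 and Ecm2 at 0.329 and 0.281, neither past 2 times, and Tsku had 4 and 27 UMIs, a ratio of 2.02 (0.703 to 7.93). In mesothelial-like cells Podn stood at 4.17 and 2.42, a ratio of 0.582 (0.481 to 0.704), and Ecm2, with 8 and 4 UMIs, was the 1 of 2 called lower, at 0.317 (0.0699 to 1.18). In endothelial-like cells 1 of 2 was higher, Tsku at 0.0489 and 0.121, beside 0.0243 and 0.116 in lymphoid cells.

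The enzymes that build the sugar chains were mostly level. Of the genes for chondroitin and dermatan sulfate, 2 of 16 were higher and 0 lower in stellate cells, with a median ratio of 1.05, and 3 of 17 were higher and 1 lower in PF-like cells, shares of higher genes near those over all genes. Dse, the epimerase that turns chondroitin into dermatan sulfate, stood at 3.01 in Q and 2.79 in F in stellate cells. Chst15, a sulfotransferase, stood at 4.23 and 3.12 there and at 0.943 and 2.02 in PF-like cells. Chsy1 and Chpf, which lengthen the chain, stood in stellate cells at 1.79 and 1.07 and at 0.870 and 1.16. Of the genes for keratan sulfate and tyrosine sulfation, 1 of 7 was higher and 1 lower in stellate cells and 0 of 7 in PF-like cells. B4galt1 stood at 0.870 and 1.69 in stellate cells, Tpst1 at 1.06 and 1.30, Fut8 at 0.917 and 0.639, and Tpst2 at 0.447 and 0.211, the last past 2 times.

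Of the processing proteases and their enhancers, 5 of 8 were higher and 1 lower in stellate cells, and 3 of 9 were higher and 3 lower in PF-like cells. Pcolce, the enhancer of procollagen cleavage, stood at 2.38 in Q and 4.79 in F in stellate cells and at 7.69 and 2.86 in PF-like cells. Mmp2 stood at 1.46 and 3.39, Adamts5 at 3.50 and 6.57, and Adamts1 at 6.56 and 4.26 in stellate cells. Of the ligands and receptors, 5 of 15 were higher and 0 lower in stellate cells, and 6 of 17 higher and 3 lower in PF-like cells. Cd44 stood at 0.235 and 1.01 and Ctgf, which decorin binds, at 1.22 and 2.91 in stellate cells, while the integrin Itgb1 (11.2 and 15.99) and Lrp1 (8.40 and 7.68) were not past 2 times. In PF-like cells Ctgf went the other way, at 1.91 and 0.466. In mesothelial-like cells these lists held, in the order chondroitin and dermatan sulfate, keratan sulfate, proteases and receptors, 3 of 18, 0 of 8, 2 of 5 and 4 of 17 genes higher in F and 1 lower in each. In endothelial-like cells 0 of 15, 0 of 6, 3 of 5 and 3 of 16 were higher, and 2 of the last list, the ligand Bmp4 and the receptor Egfr, were lower. The 3 proteases and 2 of the 3 receptors that were higher were also at least 2 times higher in lymphoid cells of F. In F the proteases stood above the lymphoid level, Adamts1 at 10.9 beside 3.30, Adamts4 at 0.705 beside 0.128 and Adamts5 at 0.284 beside 0.190. By level the 3 receptors stood below lymphoid cells. Of these, Cd44 stood at 0.154 in endothelial-like and 1.71 in lymphoid cells of Q already, so for it lymphoid cells do not show the free RNA.

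Over the 28 points given by the named classes of at least 30 cells in both libraries, the log2 levels most like those of each member were sought among 5503 other genes. These correlations are a description: the points share libraries, depth and free RNA. The nearest to Dcn were Col14a1 (Pearson's r of 0.978), Cygb, a stellate cell globin, and Col6a1. Nearest to Lum were Gdf10 (0.985), Sparcl1 and Col6a3, and nearest to Bgn were Mxra8 (0.974), Rcn3 and Fkbp7. Fmod had Fzd2 (0.978), Adgrd1 and Medag, Ogn had Medag (0.972), Podn and Cd248, Aspn had Cilp (0.995), C7 and Mmp3, Omd had Fibin (0.9496), Chrdl1 and Col4a4, and Prelp had Fhl1 (0.957), Scarf2 and Naalad2. Fmod and Ogn thus shared Medag, and the points of Aspn rest on 1 class, the PF-like cells of Q.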

How the data were processed

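Non-parenchymal liver cells of 1 mouse per condition were sequenced with 10x 3′ chemistry. The authors deposited UMI counts per gene and cell, not normalised, made with Cell Ranger 3.0.1 on mm10 per the submitters' processing notes. The study's methods state that doublets were excluded with Scrublet. Here Scrublet scores (expected rate 0.06) were computed and no cell was removed by them. In Python 3.11.15 with scanpy 1.11.5, leidenalg 0.10.2 and scipy 1.17.1, cells with over 200 genes and a mitochondrial share under 10% were clustered per library (2000 variable genes without 103 genes of the members and lists, 10 components, 20 neighbours, resolution 0.8). Clusters were named by which marker list had most genes in their 10 leading genes, given at least 3 raised markers. Mesenchymal and endothelial clusters were clustered again. Zone markers joined the endothelial list after 2 vessel clusters of Q were seen to be unnamed or called PF-like. UMIs were summed per class, and for shares of cells each cell was thinned to 1000 UMIs. A count of 0 was given the bound of 3 counts over the class. The members and lists were chosen with earlier results of these data known. Named genes are all members, the 4 highest genes of each related list in HSC/MF-like or PF-like cells, and the 3 genes most correlated with each member over log2(level + 0.1). The sum and ratio code was tested on simulated data. Total UMIs per cell ran from 898 to 75847 in Q and from 815 to 116430 in F. Gene positions are GENCODE vM21 on GRCm38.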

Additional observations from a re-analysis of the deposited data

Results flagged for a closer look

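The ratios of F over Q of 3 genes were past 2 times in opposite directions in different classes, for Dcn and Ogn with counting intervals on opposite sides of 1. With 1 library per condition these differences were not tested. Dcn was 3.23 times as high in F as in Q in endothelial-like cells and 0.392 times in PF-like cells, beside a ratio of 8.86 in lymphoid cells, which should lack it. Ogn was 3.07 times as high in HSC/MF-like cells, against 0.0499 times in PF-like and 0.147 times in mesothelial-like cells. The first of these rests on 15 UMIs in Q and 154 in F. Fmod was at 2.79 in HSC/MF-like cells, where its interval of 0.861 to 14.3 left both directions possible, and at 0.125 in mesothelial-like cells.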

How the results depend on the processing

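With 1 library per condition, mouse, preparation and treatment cannot be told apart, and the intervals cover counting error only. No paired analysis was possible with 1 library per condition, and the labels carry no replicate numbers. Of 68 alternatives of the summary values, 53 stayed the same, 13 moved and 2 reversed. Here a count of members stayed the same within 1.5 times, and a ratio within the counting interval of the reported one. Of 258 alternatives for single genes, judged by that interval alone, 146 stayed the same, 106 moved and 6 reversed. A move of a single gene can thus be smaller than 1.5 times. A further 7 gave no ratio because Q had 0 UMIs. The causes were not tested. The number of members higher in F in HSC/MF-like cells, 2 as reported, was 0 with these cells and PF-like cells pooled (chosen after seeing the data), 0 with classes named on whole-library clusters, 0 with cells thinned to 1000 UMIs, 1 without the 3 top cells and 3 per cell. In PF-like cells it was 0 and became 2 (Bgn and Lum) per cell. In mesothelial-like cells it was 1 and became 2 (Bgn beside Lum) per cell, and 0 with whole-library classes, with thinning and with a mitochondrial share under 5%. The sum over lymphoid cells, 0.893 in F, became 2.36 per cell, 1.14 at the 5% limit and 0.784 thinned, and in Q 4.29 became 6.85 per cell, 6.38 at the 5% limit and 7.06 without the 5% of cells with the highest Scrublet scores. Called ratios of single genes that reversed were Fmod (0.986) and Ogn (0.168) in HSC/MF-like cells pooled with PF-like cells, and Ogn thinned (0.898). Lum in mesothelial-like cells reversed too, at 0.312 with whole-library classes, 0 thinned and 0.130 at the 5% limit. Ratios that had not been called were not counted as reversed where they crossed 1. The lower calls of Aspn and Ogn in PF-like cells and of Fmod, Ogn and Prelp in mesothelial-like cells were past 2 times under all 11 alternatives that gave a value. That of Dcn in PF-like cells was past 2 times under 9 of 11, with 0.931 per cell and 0.511 for the pooled cells. The lower call of Omd in mesothelial-like cells, with 0 UMIs in F, was not followed through the alternatives. At a mitochondrial limit of 5% and with whole-library classes no cells of Q were named PF-like, and this class gave no value.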

Other observations

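Cholangiocyte-like cells, the lining of bile ducts, also held Bgn UMIs. Its level was 1.58 (1.45 to 1.73) in 234 cells of Q and 1.88 (1.68 to 2.09) in 90 cells of F, beside levels of 1.05 and 1.91 in lymphoid cells. By level it was thus not above lymphoid cells in F. Per cell it came to 2.11 and 3.76 UMIs, beside 0.381 and 0.578 in lymphoid cells, which were shallower (mean 3643 and 3033 UMIs, beside 13341 and 20008). Dcn in these cells stood at 0.179 in Q and 1.13 in F. In the mixed sub-cluster of F with macrophage genes, 63 cells, Dcn stood at 61.8, Bgn at 21.6, Lum at 7.13 and Prelp at 6.06.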
